A study of Mus musculus with 24 samples.

Results

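Constructs whose mesenchymal stromal cells (MSC) had been cocultured with regulatory T cells (Treg) were compared with constructs whose MSC had been primed with resolvin E1 (RvE1), gene by gene, 2 weeks after implantation under the skin of mice. The comparison took the 4 libraries of BCP+MSC+Treg and the 4 of BCP+MSC+RvE1, 8 of the 24 samples in the series, chosen by their labels alone. They are named Treg 1 to Treg 4 and RvE1 1 to RvE1 4 after their labels. All 8 came from constructs of 40 mg of biphasic calcium phosphate (BCP) granules, a ceramic bone substitute, seeded with passage 2 bone marrow MSC from C57BL/6J mice (one description of the design also names Foxp3-eGFP mice as a source). In BCP+MSC+Treg, CD4+CD25+Foxp3+ cells sorted from spleens of Foxp3-DTR/eGFP mice and activated through CD3 and CD28 were added at 1 Treg per MSC. In BCP+MSC+RvE1, the seeded constructs were kept in 10 nM RvE1, renewed at 24 h. Both kinds were implanted after 36 h. The hosts were male and female Foxp3-DTR/eGFP mice of 8 to 9 weeks, which carry a diphtheria toxin receptor and a green fluorescent protein under Foxp3 and received no toxin in these 2 groups. Each mouse carried 2 constructs of 1 kind, and each library came from a different mouse. BCP+MSC, without priming, is given as a reference where its values are shown.

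Treg are CD4+ T cells that depend on the transcription factor Foxp3 and restrain other immune cells through surface molecules, cytokines and metabolites. RvE1 is a lipid mediator made from eicosapentaenoic acid that promotes the resolution of inflammation. It acts on the receptor encoded by Cmklr1 and binds the leukotriene B4 receptor encoded by Ltb4r1. Both treatments were given before implantation, and the RNA was taken from the whole construct with its seeded cells and the host cells that had grown in. In such bulk samples fewer cells of a type and less RNA per cell cannot be told apart.

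Sequencing depth differed within both groups. Total counts were 79589926, 68371203, 74850725 and 10567666 in Treg 1 to 4, and 77159190, 18077487, 56393786 and 144417743 in RvE1 1 to 4. A count of 3, taken as the floor of detection, corresponded to 0.284 CPM (counts scaled to the library size) in Treg 4 and to 0.0208 CPM in RvE1 4. Treg 1 was the only library of the 8 with high Xist, the RNA of the inactive X chromosome (274, 0.178, 0.042 and 0.329 CPM in Treg 1 to 4), and the only one almost without the Y-linked gene Ddx3y (0 CPM against 45.1 to 105 CPM in the other 7). Same-numbered libraries of the 2 groups deviated together from their group means, with correlations of 0.470, 0.523, 0.525 and 0.156 across genes for numbers 1 to 4. Treg 4 correlated more with RvE1 3 (0.531) than with RvE1 4 (0.156). Results were also fitted with the number as a block in the 8 samples, called the paired fit here. Its p is given where it changed a call. The pairing was taken from the same expression values after they were seen, so a paired p is not an independent test. The labels name no batch. Same-numbered correlations with BCP+MSC ran from -0.501 to 0.121 for BCP+MSC+Treg and from -0.622 to 0.134 for BCP+MSC+RvE1.

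No gene passed the adjusted threshold, and the genes that passed the unadjusted one were mostly weakly expressed. Of 30564 genes tested with edgeR, 361 (1.18%) were called higher and 318 (1.04%) lower with Treg, a call being a log2 fold change beyond 1 together with p under 0.05 before adjustment. Both sets together made 679 genes (2.22%). The smallest p after Benjamini-Hochberg adjustment was 1, and 725 genes (2.37%) had an unadjusted p below 0.05 at any fold change. That was less than the share of 0.05 expected where no gene differs. DESeq2 gave 2 adjusted calls on all samples (0.00656%, Sftpd and Igkv4-54) and 3 on the 8 samples (0.0115%, Ifi208 higher, Nnat and Cyp2f2 lower). The paired fit gave 159 higher and 258 lower genes of 26352, or 0.603% and 0.979%, with a smallest adjusted p of 0.221, and the number as a block in all samples gave 388 genes (1.29%). Most calls lay near the limit of detection. Of the 679 genes, 468 had a mean of 0.1 CPM or less in both groups, which was 5.18% of the genes at that level, against 20 genes (0.201%) of those above 10 CPM. Among the 14949 genes with a mean of at least 1 CPM in one group, 38 (0.254%) were called higher and 25 (0.167%) lower.

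**Figure D1:**
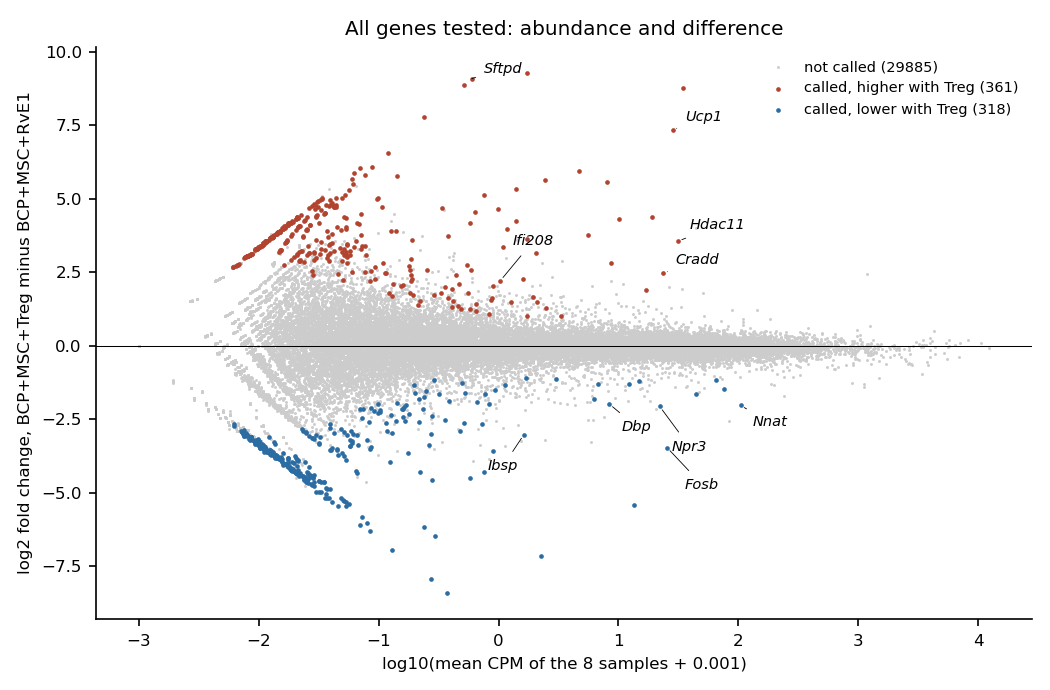
Each point is 1 of the 30564 genes, with the log10 of its mean CPM over the 8 samples (plus 0.001) on the horizontal axis and the log2 fold change on the vertical axis. The 361 genes called higher (red) and 318 called lower (blue) crowd at the left, where genes have few counts, and few colored points lie to the right.

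Single libraries carried many of the calls. In 497 of the 679 called genes (73.2%) 1 of the 8 libraries held most of the summed CPM, against 15.4% of all genes tested. Cradd, an adaptor of caspase signalling, had 8.6, 134, 6.53 and 11.6 CPM in Treg 1 to 4 and 7.77, 5.78, 7.26 and 8.26 in RvE1 1 to 4, so that Treg 2 stood apart alone (log2 fold change 2.47 ± 0.70, edgeR p = 0.00218, exact permutation p = 0.2, and edgeR p 0.446 without Treg 2). Hdac11, a histone deacetylase, had 7.79, 218, 4.15 and 1.73 CPM in Treg 1 to 4, again with Treg 2 far above the rest and 11, 0.963, 3.88 and 3.69 in RvE1 1 to 4 (edgeR p = 0.00563, exact permutation p = 0.457, and edgeR p 0.889 without Treg 2). Neither passed the paired fit, where p was 0.312 for Cradd and 0.751 for Hdac11. Sftpd, a surfactant protein, was read in Treg 1 alone, at 4.78 CPM from 364 counts, and had a count of 0 in the other 7 libraries. Immunoglobulin variable genes gave the same picture, with Ighv8-12 at 63.3 and Igkv6-32 at 143 CPM in Treg 3, and Igkv19-93 at 96.7 and Ighv5-12 at 16.6 CPM in RvE1 4. The edgeR p of Ighv8-12 was 0.07 without Treg 3, 0.0648 without RvE1 2, 0.0677 without RvE1 3 and 0.0665 without RvE1 4, and that of Igkv6-32 was 0.669 without Treg 3, 0.0571 without RvE1 1, 0.0714 without RvE1 2 and 0.074 without RvE1 3. In the paired fit they had 0.955 and 0.942. Without RvE1 4 the p of the second pair was 0.126 and 0.0959, and Igkv19-93 had 0.272 in the paired fit. Many variable genes have close copies, and their counts are uncertain. Igkv4-54, called by DESeq2, had 0 counts in all 4 Treg libraries and at most 0.261 CPM with RvE1. Only 83 of the 679 genes were called with each of the 8 libraries left out in turn, and 1 of these, Ifi208, had a mean of at least 1 CPM.

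At a mean of at least 1 CPM, 6 genes (0.0401%) combined an unadjusted p below 0.05, a log2 fold change beyond 1 and groups that did not overlap. The rule for named genes, which leaves out predicted and immunoglobulin genes, kept 5 of them: Ifi208 was higher with Treg, and Dbp, Nnat, Npr3 and Tmem88b were lower. Groups did not overlap in 309 of all genes tested (1.01%), less than a share of 0.0286. That share is expected for 4 against 4 only where libraries are interchangeable and values are not tied. Here 9032 genes had a mean of 0.1 CPM or less, and same-numbered libraries deviated together. The share of 0.0286 is therefore not an exact chance rate for these data. Groups that do not overlap always have an exact permutation p of 0.0286. For genes chosen by this rule that p is therefore not a second test. Tmem88b, a membrane protein gene, had 1.67, 0.728, 1.2 and 0.658 CPM with Treg and 3.05, 2.05, 1.89 and 2.29 with RvE1 (log2 fold change -1.10 ± 0.46, edgeR p = 0.0245, exact permutation p = 0.0286). Its edgeR p was 0.072 without Treg 2, 0.065 without Treg 4 and 0.0706 without RvE1 1. The other 4 are described with their groups.

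Of the circadian clock genes, Dbp, Nr1d1, Nr1d2 and Per3 were lower with Treg and Cry1 was higher. The clock runs on the activators encoded by Arntl and Clock, which drive the Per and Cry repressors, the nuclear receptors Nr1d1 and Nr1d2 and the PAR bZIP factors Dbp and Tef through E-boxes. The PAR bZIP factors act on D-boxes. These genes were listed after their values were known. Of 19 clock genes 1 was called, Dbp (lower), against 1.04% of all genes. At an unadjusted p below 0.05 and any fold change, 4 were lower (1.14% of all genes) and 1 higher (1.23%). In the paired fit these counts were 6 and 1, against 1.58% and 0.797% of all genes, and 7 of the 19 were lower in all 4 same-numbered pairs, against 4.28% of all genes and 5.41% of those of at least 1 CPM. The median of the list was -0.23 on the log2 scale, against 0.00094 for all genes, and was -0.053 without RvE1 2. Without the shallowest library of each group, an alternative added later, the median was -0.00512.

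Dbp (chr7:45705088-45710203 in GRCm38), the PAR bZIP factor with the strongest daily rhythm in many tissues, had 4.14, 3.59, 4.02 and 1.73 CPM in Treg 1 to 4 and 35.5, 7.04, 6.54 and 4.7 in RvE1 1 to 4. Every library with Treg lay below every library with RvE1, and RvE1 1 was far above the other 3 of its group. The log2 fold change was -1.98 ± 0.47 (edgeR p = 0.000313, exact permutation p = 0.0286, the smallest that 4 against 4 allow). Without RvE1 1 it was -0.83, where the edgeR p was 0.0173. Exons of Dbp overlap Sphk2 on the other strand, and the counting did not use strand. Tef, its relative, had 71.4, 85.3, 71.4 and 39.2 CPM with Treg and 148, 102, 87.8 and 73.6 with RvE1, lower in all 4 pairs with overlapping groups (log2 fold change -0.62 ± 0.31, edgeR p = 0.0561, exact permutation p = 0.0571, paired fit p = 0.011). Its edgeR p was 0.0346 without Treg 2 and 0.032 without RvE1 4.

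The nuclear receptors that repress Arntl were lower as well. Nr1d1 (REV-ERB alpha) had 32.1, 20.4, 26.8 and 11.3 CPM in Treg 1 to 4 and 67.9, 36, 40.7 and 35.5 in RvE1 1 to 4, without overlap (log2 fold change -0.99 ± 0.43, edgeR p = 0.0301, exact permutation p = 0.0286). This edgeR p was 0.0629 without Treg 2, 0.0902 without Treg 4 and 0.119 without RvE1 1. Exons of Nr1d1 overlap Thra on the opposite strand. Nr1d2 (REV-ERB beta) had 13, 20.8, 17.6 and 12 CPM with Treg and 49.7, 31.8, 22.4 and 18.3 with RvE1, where Treg 2 lay above RvE1 4 (log2 fold change -0.94 ± 0.27, edgeR p = 0.00159, exact permutation p = 0.0571, edgeR p below 0.05 with any library left out). Without RvE1 1 its value was -0.60.

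Of the repressors, Per3 had 7.88, 6.25, 6.08 and 6.91 CPM with Treg and 26.9, 9.93, 7.07 and 8.39 with RvE1 (log2 fold change -0.95 ± 0.31, edgeR p = 0.00541, exact permutation p = 0.0571). RvE1 1 was again highest, and without it the log2 fold change was -0.32 and the edgeR p was 0.194. Per1 had 38.3, 50.4, 41.4 and 41.4 CPM with Treg and 51.5, 71, 99.2 and 63.1 with RvE1, without overlap (log2 fold change -0.73 ± 0.40, edgeR p = 0.0776, exact permutation p = 0.0286, paired fit p = 0.00524). Per2 did not follow, at 12, 11.9, 12.9 and 13.6 CPM with Treg and 14.2, 9.45, 11.5 and 6.9 with RvE1 (log2 fold change 0.26 ± 0.25, edgeR p = 0.312, exact permutation p = 0.229). Cry1 was higher with Treg in all 4 pairs, at 16.2, 15.6, 22 and 16.6 CPM against 11, 6.44, 15.7 and 10.8 (log2 fold change 0.68 ± 0.25, edgeR p = 0.0114, exact permutation p = 0.0571, edgeR p 0.0517 without RvE1 2). The activators Arntl (0.27 ± 0.26, edgeR p = 0.303, exact permutation p = 0.343) and Clock (0.10 ± 0.21, edgeR p = 0.627, exact permutation p = 0.457) had positive log2 fold changes that did not pass the test. The hour of day at which each construct was taken is not given in the sources used here, and its part in these values was not tested.

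**Figure D2:**
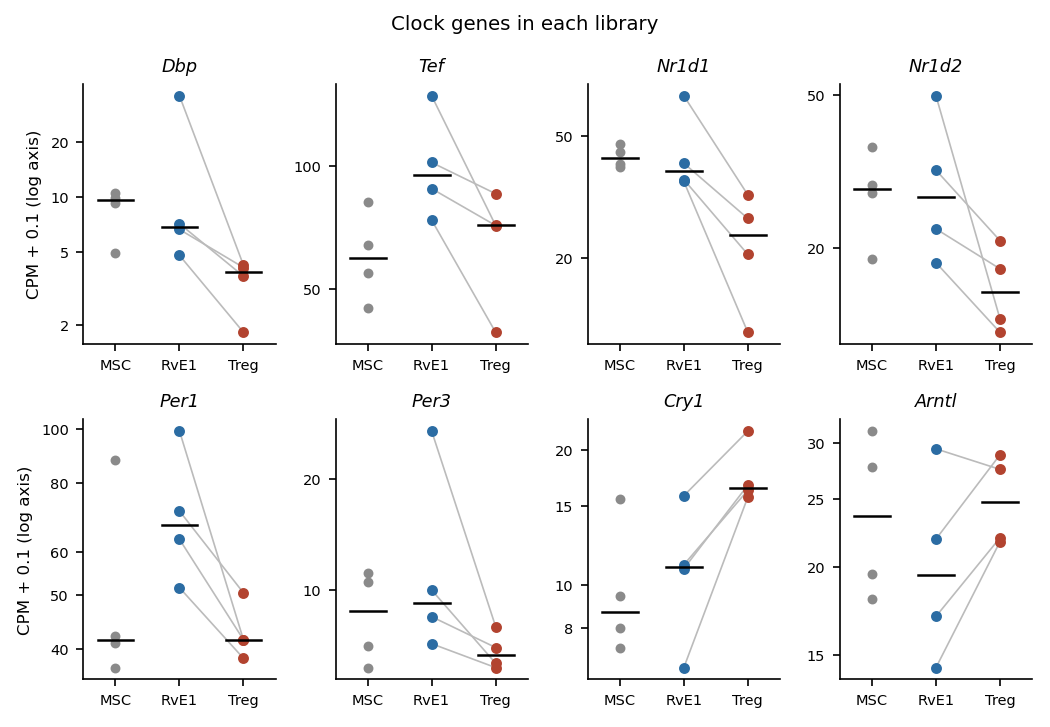
CPM plus 0.1 on a log axis for 8 clock genes in each library of BCP+MSC (grey), BCP+MSC+RvE1 (blue) and BCP+MSC+Treg (red), with black bars at the medians and grey lines joining same-numbered libraries. Dbp, Tef, Nr1d1, Nr1d2, Per1 and Per3 go down from RvE1 to Treg in all 4 pairs, and Cry1 goes up in all 4.

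The promoters of 4 genes that passed either fit are shown because they hold the E-box or D-box through which the clock acts on its targets. The windows are upstream bases from the RefSeq promoters of GRCm38.p6 (250 bases before to 50 after the annotated start), 5′ to 3′ on the strand of the gene, with the motif in capitals.
Per3, chr4:151044796-151044890, minus strand: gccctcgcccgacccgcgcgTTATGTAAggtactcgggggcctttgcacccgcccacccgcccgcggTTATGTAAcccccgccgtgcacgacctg
Tef, chr15:81802526-81802571, plus strand: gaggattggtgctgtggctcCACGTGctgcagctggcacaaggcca
Per1, chr11:69098763-69098808, plus strand: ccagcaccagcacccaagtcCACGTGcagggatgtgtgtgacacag
Cry1, chr10:85185089-85185134, minus strand: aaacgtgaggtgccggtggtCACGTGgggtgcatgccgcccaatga
The Per3 window held the D-box TTATGTAA at 205 and 158 bases before the start, a motif found on either strand in 308 of 32851 promoter windows (0.938%). The E-box CACGTG lay 127 bases before the first start of Tef, 166 before the first start of Per1 and 60 before that of Cry1, and occurred in 7.15% of windows. Neither motif was in the windows of Dbp, Nr1d1 and Nr1d2. Of the E-box genes shown, Tef and Per1 were lower in the paired fit and Cry1 was higher. The E-box was also in the windows of the clock repressor genes Ciart and Bhlhe41, which are not printed because neither passed either fit (log2 fold changes -0.23 and -0.26).

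Of the adipocyte genes, 8 of 18 were lower with Treg in the paired fit and none was called lower without pairing. Fat cells store triglyceride in droplets coated by perilipins and release hormones such as leptin and adiponectin. The list of 18 adipocyte genes had 16 below 0, a median of -0.61, and 1 call, Ucp1 (higher, against 1.18% of all genes). The 8 genes lower in the paired fit had an unadjusted p below 0.05, which 1.58% of all genes had in that direction, and 11 of 18 were lower in all 4 pairs, against 4.28%. The mean log2 CPM of the list was 8.75, 5.24, 6.12 and 4.96 in Treg 1 to 4 and 8.26, 6.37, 6.50 and 7.44 in RvE1 1 to 4. The median of the list was -2.09 without Treg 1 and -0.19 without RvE1 1, the highest library of each group.

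Plin4, a perilipin of fat cells, had 218, 52.2, 120.2 and 61.9 CPM in Treg 1 to 4 and 529, 309, 213 and 431 in RvE1 1 to 4. Only Treg 1 reached the range of RvE1 (log2 fold change -1.71 ± 0.89, edgeR p = 0.0707, exact permutation p = 0.0571, paired fit p = 0.000468, and edgeR p 0.0389 without Treg 1). Lep, which encodes leptin, had 48.1, 11.7, 26.8 and 25.3 CPM with Treg and 153, 33.9, 34.1 and 79.2 with RvE1 (log2 fold change -1.42 ± 1.26, edgeR p = 0.274, exact permutation p = 0.143, paired fit p = 0.000342). Adipoq, which encodes adiponectin, had 624, 51, 162 and 52.2 CPM with Treg and 803, 134, 281 and 534 with RvE1, where each Treg library was below its RvE1 partner while the ranges overlapped broadly (log2 fold change -0.98 ± 1.08, edgeR p = 0.378, exact permutation p = 0.2, paired fit p = 0.0155). Scd1, a fatty acid desaturase, had a log2 fold change of -1.09 that did not pass the test and in the paired fit -1.47, where p was 0.00178. Lpl, the lipase that fat, muscle and macrophages all make, had -0.39 ± 0.31 (edgeR p = 0.222, exact permutation p = 0.2, paired fit p = 0.203).

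Nnat and Npr3, which belong to none of the lists, were called lower with Treg. Nnat (chr2:157560078-157562522), an imprinted membrane protein gene, had 55.5, 15.9, 53.4 and 39.8 CPM in Treg 1 to 4 and 195, 128, 116 and 232 in RvE1 1 to 4. The highest Treg library lay below the lowest RvE1 library (log2 fold change -2.03 ± 0.87, edgeR p = 0.0314, exact permutation p = 0.0286). For Nnat the edgeR p was 0.0827 without Treg 2, 0.0608 without Treg 4, 0.0517 without RvE1 1 and 0.064 without RvE1 4, and with the number as a block in all samples it was 0.053. Npr3 (chr15:11839896-11905674), the clearance receptor for natriuretic peptides, had 7.65, 4.24, 9.53 and 13 CPM with Treg and 56.9, 14.5, 27 and 44.2 with RvE1, also without overlap (log2 fold change -2.06 ± 0.91, edgeR p = 0.0352, exact permutation p = 0.0286, paired fit p = 1.32e-05). For Npr3 the edgeR p was 0.0691 without Treg 1, 0.0871 without Treg 2, 0.057 without Treg 3, 0.0846 without RvE1 1 and 0.0607 without RvE1 4. In BCP+MSC these genes had 19, 28, 27.9 and 231 CPM for Nnat and 4.72, 15.7, 3.92 and 88.2 for Npr3, and the fourth library of that group stood far above its other 3 for both. That library also stood apart in the mean log2 CPM of the sex-linked list (3.58, against -1.48, -0.43 and -0.97). The part of sex in these levels was not tested.

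A further 4 genes, Rbp4, Sncg, Agt and Cyp2f2, named after their values were seen, were lower with Treg in all 4 pairs. Rbp4, the retinol carrier, had 45.9, 12.3, 17.7 and 11 CPM with Treg and 111, 28.6, 35.1 and 94.2 with RvE1 (log2 fold change -1.62 ± 0.70, edgeR p = 0.0314, exact permutation p = 0.0857). For Rbp4 the edgeR p was 0.0816 without Treg 2, 0.0672 without Treg 3, 0.0852 without Treg 4, 0.0983 without RvE1 1 and 0.0729 without RvE1 4. Sncg, a synuclein, had 84.4, 25.8, 31.8 and 19.2 CPM with Treg and 189, 67.1, 55.3 and 135 with RvE1 (log2 fold change -1.47 ± 0.69, edgeR p = 0.0465, exact permutation p = 0.0857). For Sncg the edgeR p was 0.107 without Treg 2, 0.0941 without Treg 3, 0.118 without Treg 4, 0.148 without RvE1 1 and 0.0824 without RvE1 4. With the number as a block in all samples, p was 0.0593 for Rbp4 and 0.0809 for Sncg. Agt, which encodes angiotensinogen, had 24.9, 11.9, 17.9 and 9.7 CPM with Treg and 38.6, 41.2, 29.996 and 62.4 with RvE1 without overlap (log2 fold change -1.41 ± 0.74, edgeR p = 0.0721, exact permutation p = 0.0286, paired fit p = 0.00238). Cyp2f2, a cytochrome P450, had 6.73, 7.85, 9.43 and 6.66 CPM with Treg and 24.8, 13.5, 18 and 43 with RvE1, also without overlap (log2 fold change -1.70 ± 0.93, edgeR p = 0.0851, exact permutation p = 0.0286, paired fit p = 0.000639).

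Brown adipocyte genes, listed after their values were seen, were high in 1 library. Of 12 genes 11 were above 0 and 3 were called higher (Ucp1, Elovl3 and the fatty acid transporter gene Slc27a2), against 1.18% of all genes. The median was 0.96, and -0.32 without Treg 1. Ucp1, the uncoupling protein of brown fat, had 225, 0.0486, 0.14 and 0.247 CPM in Treg 1 to 4 and 1.12, 0, 0.0567 and 0.0893 in RvE1 1 to 4. Cidea, a droplet protein of brown fat, had 331, 0.987, 1.44 and 0.0822 CPM with Treg and 17.1, 0.301, 0.794 and 2.11 with RvE1. Elovl3, a fatty acid elongase, had 10.7, 0.0809, 0.042 and 0 CPM with Treg and 0.0544, 0.12, 0.0567 and 0.0596 with RvE1. Treg 1 alone was high in all 3, and RvE1 1 was the next in Ucp1 and Cidea. The log2 fold changes were 7.33 ± 2.33 (edgeR p = 0.00547, exact permutation p = 0.457), 4.01 ± 1.97 (edgeR p = 0.0563, exact permutation p = 0.829) and 5.34 ± 1.72 (edgeR p = 0.00542, exact permutation p = 0.829). Without Treg 1 they were -1.43, -2.46 and -0.37, where the edgeR p was 0.388, 0.15 and 0.783. The edgeR p of Cidea was 0.0381 without Treg 2, 0.0392 without Treg 3, 0.0346 without Treg 4 and 0.0202 without RvE1 1, and that of Elovl3 in the paired fit 0.308.

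**Figure D3:**
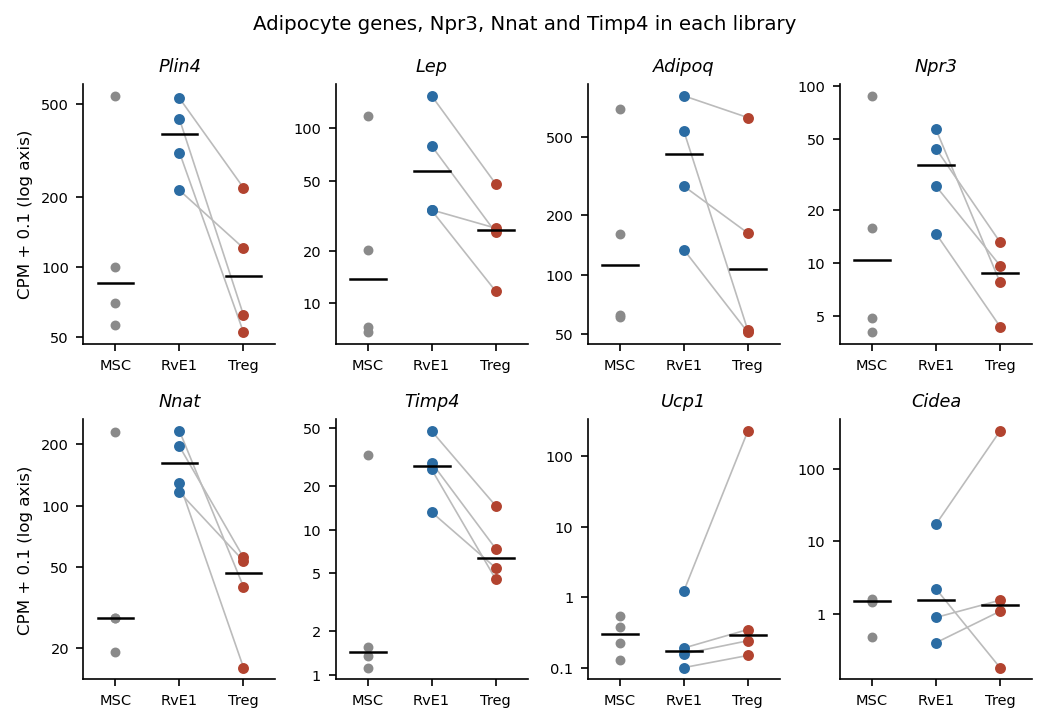
CPM plus 0.1 on a log axis for 5 adipocyte genes and Npr3, Nnat and Timp4 in each library, drawn as for the clock genes. Plin4, Lep, Adipoq, Npr3, Nnat and Timp4 go down from RvE1 to Treg in all 4 pairs, while Ucp1 and Cidea are high in 1 Treg library.

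No gene of the Treg signature or of the wider T cell list passed the test. Foxp3, the gene that defines Treg, had 0.42, 0.356, 0.729 and 1.48 CPM in Treg 1 to 4 and 0.68, 0.421, 0.851 and 0.998 in RvE1 1 to 4, with overlapping groups (log2 fold change -0.071 ± 0.51, edgeR p = 0.89, exact permutation p = 0.771). With 1 library left out its log2 fold change ran from -0.58 to 0.17. Its exons overlap Flicr, Ppp1r3f, Ccdc22 and Gm36995. Of 20 Treg signature genes 12 were above 0 with a median of 0.064 and 0 calls, and 0 had an unadjusted p below 0.05. Tnfrsf9 (4-1BB) had 0.72 ± 0.70 (edgeR p = 0.314, exact permutation p = 0.314) and Entpd1 (CD39) 0.20 ± 0.25 (edgeR p = 0.437, exact permutation p = 0.314). Of 25 T cell genes 14 were above 0 with a median of 0.068 and 0 calls, with Cd4 at -0.34 ± 0.30 (edgeR p = 0.27, exact permutation p = 0.143) and the T cell receptor constant gene Trac at 0.27 ± 0.45 (edgeR p = 0.552, exact permutation p = 0.629). In each of these 2 lists 0 genes were higher or lower in all 4 pairs. The cytotoxic list had 13 of 21 genes above 0, a median of 0.029 and 1 call, against 1.18% of all genes, for Klrc3, a lectin-like receptor of NK cells. It rested on counts of 1, 0, 3 and 4 in Treg 1 to 4 and 0 in each RvE1 library (edgeR p = 0.0136, exact permutation p = 0.143, and edgeR p 0.0631 without Treg 4), for which no fold change is given and which the paired fit did not include. Prf1 (perforin) had 0.56 ± 0.54 (edgeR p = 0.311, exact permutation p = 0.171) and Gzmb 0.38 ± 0.59 (edgeR p = 0.529, exact permutation p = 0.286). In the cytotoxic list 8 genes were below 0, among them Klra8 at -0.74, and 0 were called lower.

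No gene of the interferon list passed the test without pairing. Of its 32 members 30 were above 0, against 50.1% of all genes, with a median of 0.24 and 0 calls, and 3 were higher in all 4 pairs, against 3.85% of all genes and 4.01% of those of at least 1 CPM. The mean log2 CPM of the list was 5.12, 4.21, 3.77 and 3.84 in Treg 1 to 4 and 4.15, 3.15, 4.26 and 3.92 in RvE1 1 to 4, so that Treg 1 was highest, RvE1 2 lowest and the list was higher with Treg in 2 of the 4 pairs. Ido1, the interferon-induced enzyme that breaks down tryptophan, had 6.46, 1.38, 0.126 and 0.247 CPM in Treg 1 to 4 and 0.844, 0, 0.0946 and 0.0298 in RvE1 1 to 4. It was higher with Treg in all 4 pairs and overlapped between groups (log2 fold change 3.00 ± 1.77, edgeR p = 0.106, exact permutation p = 0.143, paired fit 2.76 with p = 0.00367, and edgeR p = 0.0295 without RvE1 1). Treg 4 and RvE1 4 were close to their floors of 0.284 and 0.0208 CPM. The direction in that pair rests on few counts, as it does between Treg 3 and RvE1 3. Ifng, which encodes interferon gamma, had 0.998, 0.324, 0.112 and 0.164 CPM with Treg and 0.163, 0.12, 0.113 and 0.305 with RvE1, where Treg 1 alone exceeded RvE1 4 clearly (log2 fold change 1.17 ± 0.92, edgeR p = 0.215, exact permutation p = 0.371). The chemokine gene Cxcl10 (0.71 ± 0.49, edgeR p = 0.166, exact permutation p = 0.371) and the guanylate binding protein genes Gbp4 (0.55 ± 0.39, edgeR p = 0.173, exact permutation p = 0.371) and Gbp7 (0.63 ± 0.39, edgeR p = 0.12, exact permutation p = 0.229, paired fit p = 0.0256) had positive values.

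Ifi208 (chr1:173673675-173698392), a member of the interferon-inducible cluster that includes DNA sensors, was the one gene above 1 CPM that kept its call with any library left out. Its level was 2.23, 1.13, 1.18 and 2.22 CPM in Treg 1 to 4 and 0.204, 0.662, 0.34 and 0.305 in RvE1 1 to 4, without overlap (log2 fold change 2.21 ± 0.64, edgeR p = 0.0021, exact permutation p = 0.0286). These levels came from 27 to 170 counts with Treg and 11 to 41 with RvE1. The cluster holds close copies, between which reads may be split. Cd274, which encodes the checkpoint ligand PD-L1 and was chosen after its values were seen, had 60.5, 73, 56.7 and 97 CPM with Treg and 45.4, 32.6, 50.3 and 52.2 with RvE1, without overlap (log2 fold change 0.67 ± 0.26, edgeR p = 0.0178, exact permutation p = 0.0286). Its edgeR p was 0.0937 without Treg 4 and 0.0649 without RvE1 2.

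Among myeloid genes, Nos2 was called higher with Treg. The macrophage list had 17 of 24 genes above 0, a median of 0.17 and 1 call, against 50.1% of all genes above 0 and 1.18% called higher. Nos2, the inducible nitric oxide synthase of activated macrophages, had 21.2, 26.9, 4.26 and 54.7 CPM in Treg 1 to 4 and 5.39, 2.95, 5.79 and 14.2 in RvE1 1 to 4, with Treg 3 inside the range of RvE1 (log2 fold change 1.90 ± 0.83, edgeR p = 0.0344, exact permutation p = 0.114). The edgeR p was 0.149 without Treg 4, 0.0736 without RvE1 1, 0.0878 without RvE1 2 and 0.072 without RvE1 3. Arg1, the arginase that competes for the same substrate, had 689, 2947, 1031 and 1523 CPM with Treg and 166, 981, 912 and 1806 with RvE1 (log2 fold change 0.68 ± 0.56, edgeR p = 0.241, exact permutation p = 0.4). The scavenger receptor gene Msr1 (0.42 ± 0.33, edgeR p = 0.216, exact permutation p = 0.114) was higher in all 4 pairs. Cd163, another scavenger receptor gene, had 0.62, which did not pass the test, and in the paired fit 0.63, where p was 0.0162. In the macrophage list 7 genes were below 0, among them Retnla at -0.95, Marco at -0.68 and Cx3cr1 at -0.49. Of the list 0 genes were called lower. The neutrophil list had 11 of 17 genes above 0 and 0 calls, with the growth factor receptor gene Csf3r at 0.35 ± 0.28 (edgeR p = 0.225, exact permutation p = 0.114).

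The inflammatory list had 11 of 22 genes above 0 and a median of -0.00053, the chemokine list 17 of 25 and 0.053, and the type 2 list 12 of 16 and 0.21, with 0 calls in each, against 2.22% of all genes called in either direction. Il6, an inflammatory cytokine, had 0.893, 1.78, 0.925 and 0.493 CPM in Treg 1 to 4 and 1.17, 2.17, 6.41 and 2.06 in RvE1 1 to 4. It was lower with Treg in all 4 pairs, and RvE1 3 was the highest (log2 fold change -1.496 ± 0.81, edgeR p = 0.0791, exact permutation p = 0.0571, paired fit -1.35 with p = 0.0232). Cxcl1, a neutrophil chemokine, had 7.89, 2.88, 4.81 and 6.99 CPM with Treg and 6.76, 3.97, 33.9 and 9.94 with RvE1, again with RvE1 3 apart (log2 fold change -1.28 ± 0.81, edgeR p = 0.128, exact permutation p = 0.286). Cxcl13, the B cell chemokine, had -0.98, which did not pass the test, and in the paired fit p was 0.0176. The interleukin 4 receptor gene Il4ra (0.44 ± 0.35, edgeR p = 0.227, exact permutation p = 0.4) and the interleukin 13 receptor gene Il13ra1 (0.41 ± 0.29, edgeR p = 0.172, exact permutation p = 0.286) did not pass the test. In the B and plasma cell list 16 of 20 genes were below 0, with a median of -0.37 and 0 calls. The heavy chain gene Ighm had 600.4, 682, 843 and 441 CPM with Treg and 451, 934, 1437 and 3536 with RvE1 (log2 fold change -1.31 ± 1.15, edgeR p = 0.27, exact permutation p = 0.171), and RvE1 4 was highest there as in the joining chain gene Jchain (-1.34 ± 1.02, edgeR p = 0.207, exact permutation p = 0.2) and the plasma cell receptor gene Tnfrsf17 (-1.22 ± 0.83, edgeR p = 0.157, exact permutation p = 0.171).

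The complement genes C2 and C4b were lower with Treg, and C3 did not pass the test. Complement tags cells and debris for clearance, and C2 and C4b form the enzyme of the classical and lectin routes that splits C3. These genes were chosen after their values were seen. C2 had 30.9, 23.9, 18.6 and 17.1 CPM in Treg 1 to 4 and 44.8, 48.5, 31.1 and 48.3 in RvE1 1 to 4. The groups touched but did not overlap (log2 fold change -0.93 ± 0.30, edgeR p = 0.00459, exact permutation p = 0.0286), and the edgeR p was below 0.05 with any library left out. Exons of C2 overlap Gm20547 and Zbtb12. C4b had 499, 298, 429 and 603 CPM with Treg and 645, 761, 817 and 975 with RvE1, without overlap (log2 fold change -0.81 ± 0.30, edgeR p = 0.012, exact permutation p = 0.0286, and edgeR p 0.0505 without Treg 2). C3 had 2091, 1284, 1972 and 2376 CPM with Treg and 1729, 1434, 2540.2 and 2481 with RvE1 (log2 fold change -0.084 ± 0.35, edgeR p = 0.812, exact permutation p = 0.8). Of 26 complement genes 16 were below 0, with 0 calls, 2 lower at an unadjusted p below 0.05 (1.14% of all genes) and a median of -0.12.

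Mmp3 and Adamts5, which degrade matrix, were lower with Treg. Mmp3 (stromelysin 1), which cuts proteoglycans and activates other metalloproteinases, had 125, 159.6, 149.7 and 140.1 CPM in Treg 1 to 4 and 195, 304, 235 and 202 in RvE1 1 to 4, without overlap (log2 fold change -0.70 ± 0.30, edgeR p = 0.0259, exact permutation p = 0.0286, and edgeR p 0.062 without Treg 1 and 0.0912 without RvE1 2). Adamts5, an aggrecanase, had 102, 88.8, 97.4 and 94 CPM with Treg and 129, 126, 119 and 159 with RvE1, also without overlap (log2 fold change -0.48 ± 0.22, edgeR p = 0.0363, exact permutation p = 0.0286). Its edgeR p was 0.0761 without Treg 2, 0.0554 without Treg 3, 0.0545 without Treg 4 and 0.114 without RvE1 4. Timp4, an inhibitor of metalloproteinases, had 14.5, 4.47, 5.37 and 7.32 CPM with Treg and 47.8, 25.9, 13.1 and 28.9 with RvE1, where only Treg 1 reached RvE1 3 (log2 fold change -1.87 ± 1.04, edgeR p = 0.0892, exact permutation p = 0.0571, paired fit p = 1.68e-05). Mmp1b, a collagenase-like gene, was near the floor, at 0.0263, 0, 0.266 and 0.658 CPM with Treg and 0.0272, 0, 0.0757 and 0.0298 with RvE1 (log2 fold change 2.36 ± 1.32, edgeR p = 0.0857, exact permutation p = 0.4, edgeR p 0.0479 without Treg 1 and 0.0349 without Treg 2). The whole list had 13 of 24 genes below 0, a median of -0.029 and 0 calls, and 2 lower at an unadjusted p below 0.05 (1.14% of all genes). The fibroblast and collagen list had 15 of 26 genes above 0 and a median of 0.035.

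In the family of epidermal growth factor ligands, Areg (amphiregulin), which Treg can make during tissue repair, had 21.3, 2.43, 0.28 and 0.164 CPM in Treg 1 to 4 and 1.4, 0, 0.832 and 0.916 in RvE1 1 to 4. Treg 1 was far above all others, Treg 3 and Treg 4 were below 3 of the 4 RvE1 libraries (log2 fold change 2.89 ± 1.58, edgeR p = 0.0844, exact permutation p = 0.486), and without Treg 1 the value was 0.29 with an edgeR p of 0.844. Nrg1 (neuregulin 1) had 2.78, 5.81, 3.29 and 6.99 CPM with Treg and 1.01, 3.55, 3.52 and 3.4 with RvE1 (log2 fold change 0.71 ± 0.49, edgeR p = 0.159, exact permutation p = 0.286, paired fit p = 0.0455). The list had 9 of 15 genes above 0, a median of 0.046 and 0 calls. Skin and hair genes had a median of 0.68 (-0.40 with a covariate for sex-linked genes and -0.21 without Treg 1), with 0 calls, and mean log2 CPM of -0.27, -1.07, -2.36 and -2.66 in Treg 1 to 4 and -0.83, -2.51, -2.26 and -2.41 in RvE1 1 to 4. Krt15, a keratin of hair follicles, had 9.41, 1.13, 0 and 0 CPM in Treg 1 to 4 and 0.775, 0, 0.0378 and 0 in RvE1 1 to 4 (edgeR p = 0.181, exact permutation p = 0.543, paired fit p = 0.0281), so that Treg 1 was highest here as for Areg. The part of skin in the level of Areg was not tested.

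Of the bone genes, Ibsp was called lower with Treg. Ibsp, which encodes bone sialoprotein of mineralizing matrix, had 0.171, 0.0971, 0.392 and 0.904 CPM in Treg 1 to 4 and 0.476, 2.17, 7.55 and 1.23 in RvE1 1 to 4, with Treg 4 above RvE1 1 and RvE1 3 highest (log2 fold change -3.03 ± 1.18, edgeR p = 0.018, exact permutation p = 0.0571, and edgeR p 0.0511 without Treg 1, 0.0529 without Treg 2 and 0.123 without RvE1 3). It was lower in all 4 pairs. The osteoblast list had 16 of 27 genes below 0, a median of -0.18 and Ibsp as its 1 call, against 1.04% of all genes called lower. Dmp1, an osteocyte matrix protein gene, had -0.63 ± 0.51 (edgeR p = 0.226, exact permutation p = 0.0571) and Phex, an endopeptidase of phosphate balance, 1.16 ± 0.91 (edgeR p = 0.217, exact permutation p = 0.0857). The cartilage list had 15 of 23 genes below 0 and a median of -0.10, with the matrilin gene Matn4 at -0.84 ± 0.60 (edgeR p = 0.176, exact permutation p = 0.171), and the osteoclast list had 11 of 17 above 0 and a median of 0.05, with 0 calls in both.

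The receptors of RvE1 did not differ beyond the spread between libraries. Cmklr1 had 52.6, 47.4, 64.9 and 79.7 CPM in Treg 1 to 4 and 57.3, 67.6, 74.2 and 57.1 in RvE1 1 to 4 (log2 fold change -0.068 ± 0.24, edgeR p = 0.78, exact permutation p = 0.629). Ltb4r1 had 24.8, 61.8, 16.3 and 22.9 CPM with Treg and 8.19, 45.5, 14.9 and 31.7 with RvE1, where libraries within a group differed more than the groups did (log2 fold change 0.33 ± 0.52, edgeR p = 0.533, exact permutation p = 0.571). Among the enzymes of lipid mediators, Alox15, which takes part in making resolvins, had 0.45 ± 0.59 (edgeR p = 0.455, exact permutation p = 0.457), the leukotriene synthase gene Ltc4s -0.71 ± 0.57 (edgeR p = 0.227, exact permutation p = 0.4) and the prostaglandin synthase gene Ptges -0.23 ± 0.21 (edgeR p = 0.277, exact permutation p = 0.4). The list had 11 of 19 genes above 0, a median of 0.055 and 0 calls.

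**Figure D4:**
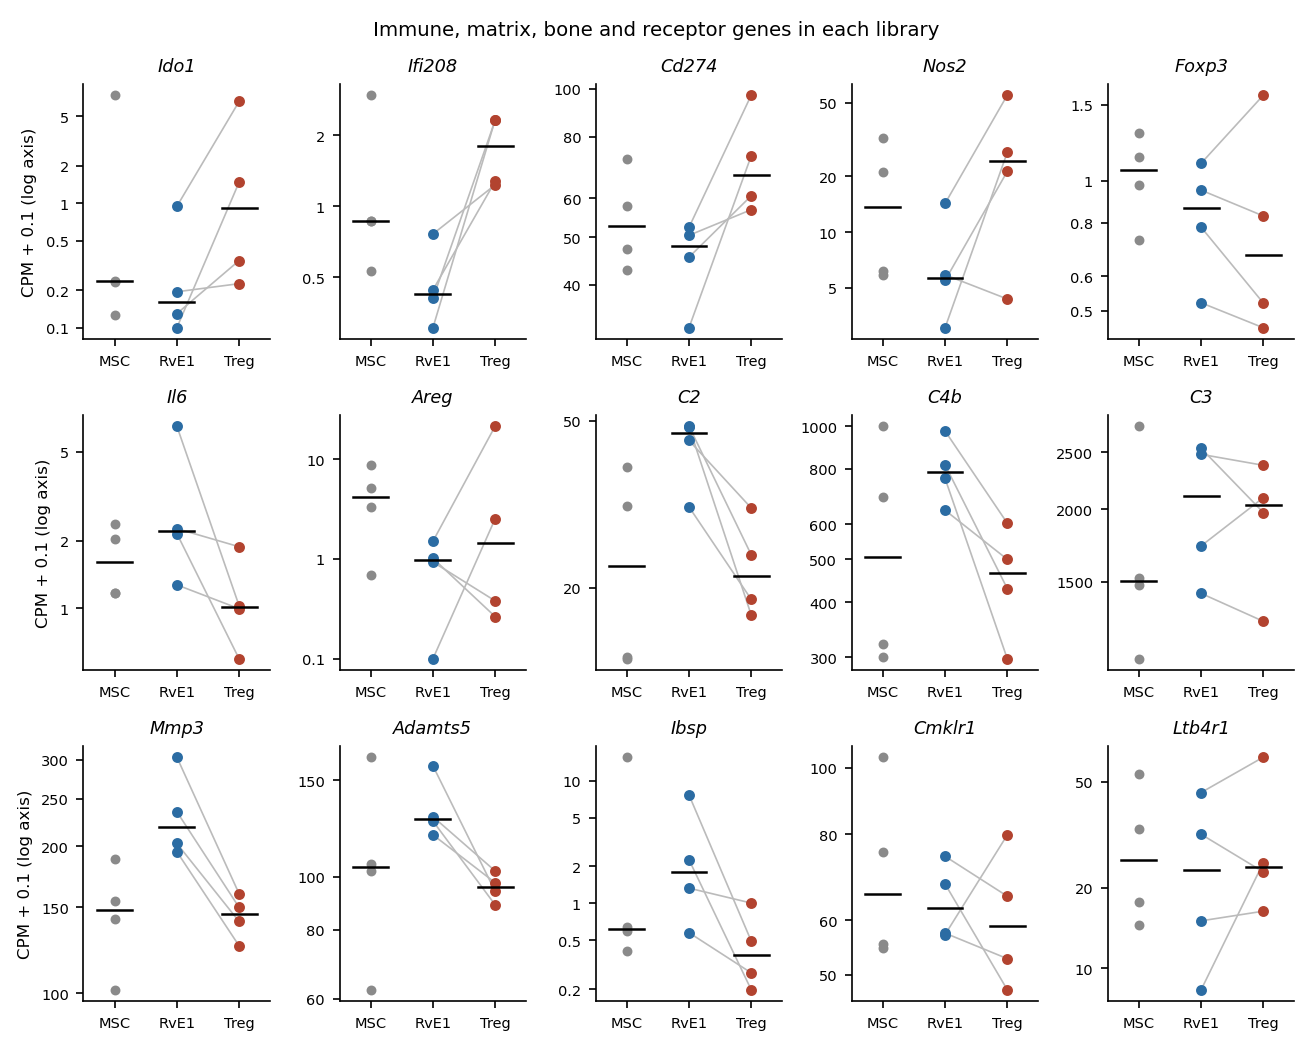
CPM plus 0.1 on a log axis for 15 immune, matrix, bone and receptor genes in each library, drawn as for the clock genes. Ifi208 and Cd274 lie higher with Treg and C2, C4b, Mmp3 and Adamts5 lower without overlap, while Foxp3, C3, Cmklr1 and Ltb4r1 overlap.

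The muscle list had 26 of 36 genes below 0, a median of -0.46 and 0 calls, and its mean log2 CPM was 7.84, 8.63, 8.27 and 5.73 in Treg 1 to 4 and 8.44, 7.93, 8.78 and 6.99 in RvE1 1 to 4, lowest in Treg 4. Myh4, a fast myosin heavy chain gene, had -0.65 ± 0.76 (edgeR p = 0.396, exact permutation p = 0.2). Oxidative phosphorylation (21 of 58 above 0, median -0.039), endothelial (12 of 20, 0.032) and cell cycle genes (16 of 25, 0.078) had 0 calls each.

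**Figure D5:**
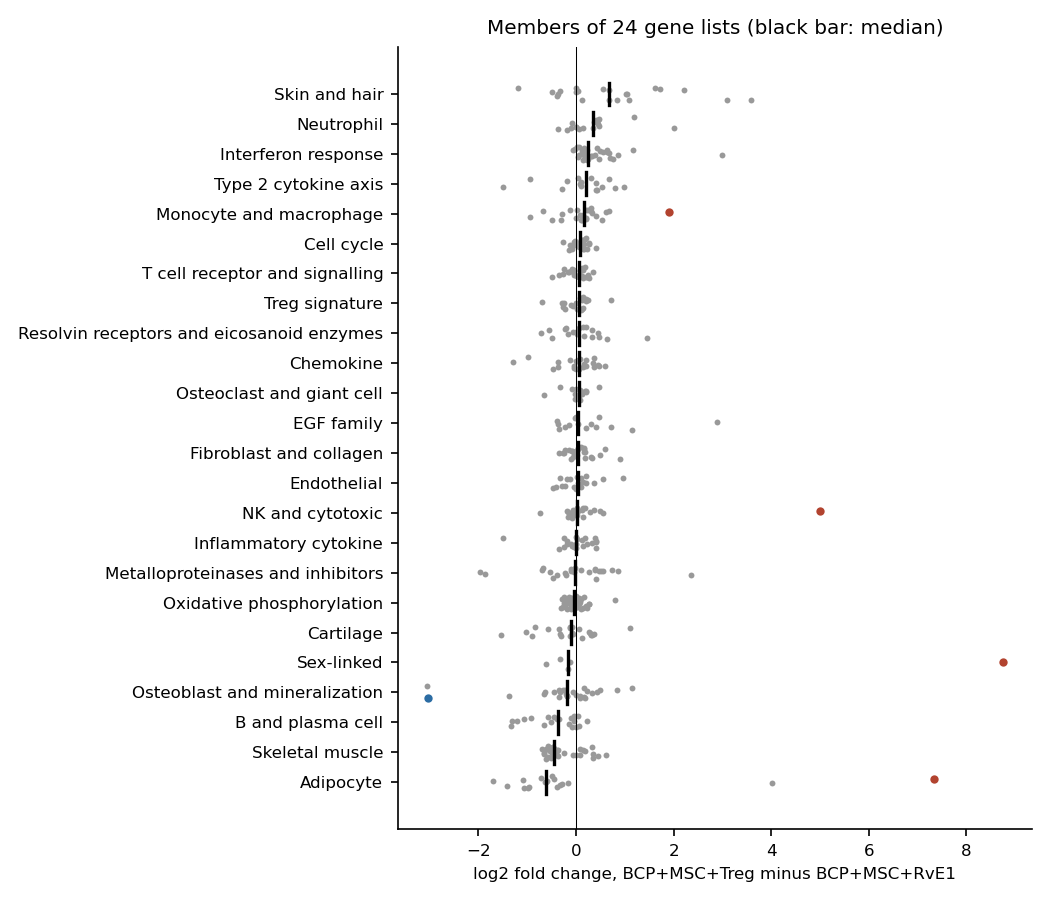
Log2 fold change of each member of 24 gene lists, with the list median as a black bar and the genes called at an unadjusted p below 0.05 and a log2 fold change beyond 1 in red (higher) or blue (lower). Medians run from -0.61 for adipocyte genes to 0.68 for skin and hair genes, and most members lie close to 0.

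Against BCP+MSC, which both comparisons share, the 2 groups gave the following values for 7 genes. The other named genes are not given here, and these 7 do not stand for them. Dbp had a log2 fold change of -1.32 ± 0.46 in BCP+MSC+Treg and 0.66 ± 0.45 in BCP+MSC+RvE1. Nr1d2 had -0.82 ± 0.26 and 0.12 ± 0.26 in that order, and Cry1 0.82 ± 0.25 and 0.15 ± 0.25. Ibsp had -3.59 ± 1.203 with Treg and -0.56 ± 1.05 with RvE1, against BCP+MSC levels of 0.546, 0.305, 0.497 and 15.4 CPM in which the fourth library stood alone. Of these 4 genes the values with Treg passed an unadjusted p of 0.05 and those with RvE1 did not. C2 had -0.096 ± 0.30 with Treg and 0.83 ± 0.30 with RvE1, and Mmp3 -0.028 ± 0.30 and 0.68 ± 0.30. Ifi208 had 0.47 ± 0.60 with Treg and -1.74 ± 0.63 with RvE1. Of these 3 genes the values with RvE1 passed and those with Treg did not. The only test of the difference between these values is the comparison of the 2 groups given for each gene.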

How the data were processed

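Poly(A) RNA of whole constructs was sequenced in pairs of reads, 4 libraries per group, each from 1 animal (RNeasy, TruSeq Stranded mRNA, NovaSeq). The deposited values were raw counts per gene, which the authors made with featureCounts on the GENCODE annotation of GRCm38 from aligned reads, without strand per the file headers. HISAT2 2.0.5, featureCounts 1.5.2, Picard, STAR and DESeq2 1.42.0 are named in the submitters' processing notes. Genes with at least 10 counts in total over the 24 samples were kept (30564 of 51138). The fit was edgeR 4.0.16 (quasi-likelihood, robust, TMM factors, R 4.3.3) on all 24 samples in 6 groups without covariates, with the contrast of BCP+MSC+Treg minus BCP+MSC+RvE1, so that a positive log2 fold change is higher with Treg. Values after ± are standard errors. Unless named adjusted, p-values were unadjusted; none passed 0.05 after Benjamini-Hochberg adjustment over all genes. A gene was called at an unadjusted p below 0.05 and a log2 fold change beyond 1. CPM were scaled by TMM, and list levels are means of log2 CPM with a prior count of 2. Permutation tests were exact and two-sided, with a smallest p of 0.0286, which every gene with groups that do not overlap has. The scripts were tested on simulated data.

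The labels do not say that a number marks a shared batch or day, and the animals differed. By the correlation of deviations over 14949 genes (0.470, 0.523, 0.525 and 0.156) the numbers were taken as pairs. This hint comes from the data, and Treg 4 correlated more with RvE1 3 (0.531) than with RvE1 4. Same-numbered correlations between other groups were mixed. They ran from -0.622 to 0.134 for BCP+MSC with BCP+MSC+RvE1 and from -0.0281 to 0.560 for BCP with BCP+MSC+Treg. The paired fit took the 8 samples with the number as a block and was chosen after the data were seen.

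Named genes were those the study discusses for this comparison and the RvE1 receptors, the 10 higher and 10 lower genes of smallest p that were called, did not overlap and reached 1 CPM, and up to 4 members of smallest p per list. The members and lists were chosen with earlier results of these data known. The clock, complement, immediate early and brown adipocyte lists, and Elovl3, Rbp4, Sncg, Agt, Cyp2f2, Cd274, Cradd, Hdac11, Sftpd and the immunoglobulin variable genes, were chosen after their values were seen. Alternatives were other normalization and filters, covariates for sex-linked and muscle genes, the 8 samples alone, the replicate block, DESeq2 and each library left out in turn. Counting error and animal differences both enter the spread. The result for 1 gene is not reported here.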

Additional observations from a re-analysis of the deposited data

Results flagged for a closer look

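A sample far from the other 3 of its group was found in 15 of 229 groups of 4 tested (6.55%). No chance rate is set beside this share, because some of the genes were chosen after their values were seen. Treg 1 and Treg 4 each held 4 of the 15. Treg 1 was highest for Ucp1 (225 CPM), Sftpd (4.78 CPM) and the cartilage list (mean log2 CPM 0.076) and lowest for the mean log2 CPM of the sex-linked list (-1.64). Treg 4, the shallowest library with 10567666 counts, was lowest for Dbp (1.73 CPM) and Tnfrsf17 (0.164 CPM) and highest for Clock (49.7 CPM). Treg 2 was lowest for Scn7a (18.5 CPM), and Treg 3 was highest for Ighv8-12 (63.3 CPM). RvE1 4 was highest for the T cell list (mean log2 CPM 2.69) and the cytotoxic list (1.77). RvE1 1 was lowest for Nrg1 (1.01 CPM) and highest for the skin and hair list (mean log2 CPM -0.83). RvE1 2 was lowest for Areg, with 0 CPM.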

How the results depend on the processing

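Counts of called genes depended on the processing. Genes called higher numbered 361, and 92 with the filterByExpr filter, 183 with the replicate block in all samples, 203 in the 8 samples alone, 159 in these with the replicate block, 178 with DESeq2 on all samples and 197 with DESeq2 on the 8. Genes called lower numbered 318, and 70, 205, 152 and 205 with filterByExpr, the replicate block, DESeq2 on all and DESeq2 on the 8. With 1 library left out the counts ran from 211 (without RvE1 4) to 393 higher and from 237 to 467 lower. Adjusted calls were 2 and 3 with DESeq2 and 0 with edgeR. The median of the skin and hair list was -0.40 with the sex-linked covariate. That of the adipocyte list ran from -2.09 (without Treg 1) to -0.19 (without RvE1 1), and that of the clock list from -0.32 to -0.053 with 1 library left out and was -0.00512 without the shallowest library of each group, an alternative added later. C3 was at 0.084 with the sex-linked covariate. With 1 library left out, log2 fold changes changed sign for C3 (-0.22 to 0.069), Cidea (-2.46 to 6.17), Clock (-0.021 to 0.24), Cmklr1 (-0.23 to 0.037), Elovl3 (-0.37 to 5.75), Foxp3 (-0.58 to 0.17), Hdac11 (-0.093 to 4.32), Ighv8-12 (-5.19 to 6.78), Igkv6-32 (-0.68 to 4.78), Ltb4r1 (-0.23 to 0.78) and Ucp1 (-1.43 to 9.69). The cause was not tested. In the all-sample replicate block, Nnat, Rbp4, Sncg and Igkv4-54 also lost and Matn4 gained an unadjusted p below 0.05. Among the named genes it could be fitted to, which left out Klrc3, the paired fit changed no call beyond those given beside the results and in the other observations. Of the 679 calls, 468 lay at 0.1 CPM or less.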

Other observations

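Of 11643 genes with a mean of at least 5 CPM in a group, 17 (0.146%) had an unadjusted p below 0.05 and groups that did not overlap, 13 lower and 4 higher with Treg. Of those not yet described, 7 are given here, named after their values were seen. Their exact permutation p of 0.0286 follows from the choice of groups that did not overlap. Scn7a, a sodium channel gene of nerve-associated cells, had -0.65 ± 0.27 (edgeR p = 0.0257, exact permutation p = 0.0286, edgeR p 0.105 without Treg 2 and 0.0889 without RvE1 1). Cers4, a ceramide synthase gene, had 12.3, 9.02, 9.99 and 8.3 CPM with Treg and 15.3, 17, 12.9 and 22 with RvE1 (log2 fold change -0.76 ± 0.26, edgeR p = 0.00661, exact permutation p = 0.0286, edgeR p below 0.05 with any library left out). Prss23, a serine protease gene, had -0.43 ± 0.20 (edgeR p = 0.046, exact permutation p = 0.0286) and 4933421O10Rik -0.49 ± 0.23 (edgeR p = 0.04, exact permutation p = 0.0286, paired fit p = 0.0899). Among the higher genes, Bst1, an enzyme of the CD38 family, had 47.9, 62.1, 57.5 and 57.6 CPM with Treg and 46.4, 28.6, 41.7 and 39.954 with RvE1 (log2 fold change 0.52 ± 0.20, edgeR p = 0.0152, exact permutation p = 0.0286, edgeR p 0.0639 without RvE1 2). Piga, which starts the synthesis of membrane anchors, had 0.72 ± 0.27 (edgeR p = 0.0144, exact permutation p = 0.0286, edgeR p 0.0952 without Treg 4) and Cyb561d1 0.36 ± 0.16 (edgeR p = 0.0332, exact permutation p = 0.0286, paired fit p = 0.0878). The edgeR p of Prss23 was 0.0742 without Treg 3, 0.148 without Treg 4, 0.155 without RvE1 2 and 0.0546 without RvE1 3. The edgeR p of 4933421O10Rik was 0.0513 without Treg 1, 0.117 without Treg 2, 0.0522 without Treg 4, 0.0698 without RvE1 2 and 0.101 without RvE1 4. The edgeR p of Cyb561d1 was 0.0548 without Treg 2, 0.0701 without Treg 4, 0.0575 without RvE1 2, 0.0503 without RvE1 3 and 0.0586 without RvE1 4.

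Immediate early genes, which respond within minutes to stimulation of a cell, were high in RvE1 3. Fosb had 4.07, 2.74, 4.74 and 5.59 CPM in Treg 1 to 4 and 18.6, 1.32, 149 and 17.8 in RvE1 1 to 4 (log2 fold change -3.46 ± 1.25, edgeR p = 0.0125, exact permutation p = 0.2, paired fit p = 0.121, and edgeR p 0.168 without RvE1 3). Fos had 35.3, 48, 53.2 and 47.1 CPM with Treg and 40.2, 33.5, 244 and 85.5 with RvE1 (log2 fold change -1.14 ± 0.69, edgeR p = 0.118, exact permutation p = 0.429). Nr4a1 had 41, 56.9, 55.6 and 29.3 CPM with Treg and 58.7, 58.9, 190.5 and 73.2 with RvE1, without overlap (log2 fold change -1.06 ± 0.59, edgeR p = 0.0902, exact permutation p = 0.0286, paired fit p = 0.00772). Of 19 such genes 12 were below 0, and 1, Fosb, was called, against 1.04% of all genes called lower. RvE1 3 was also the highest library for Il6 and Cxcl1.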
